A study of Homo sapiens with 4 samples.

Results

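Chromatin remodelers and histone modifiers were represented by 77 genes of the 26490 listed in a DHX36 PAR-CLIP data set from HEK293 cells, a human embryonic kidney line. The genes were chosen by symbol, as KMT2A to KMT2E (5 genes), the KDM genes (18), the SMARC genes (14), the CHD genes (9), the ARID1 to ARID5 genes that end in A or B (8), the SETD genes (10), EZH1 and EZH2, and the HDAC genes (11). The symbol patterns use no measured value, although they were drawn up with earlier results of these data known. The prefix SMARCA also took in the antisense RNA SMARCA5-AS1, so that 76 members code for protein, and the patterns left out ARID2, SETDB1 and CHD1L. SETD8 is annotated today as KMT5A and was followed under the symbol of the table.

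DHX36 is a DEAH-box helicase that binds and unwinds G-quadruplexes, 4-stranded structures formed by runs of guanines in DNA or RNA. In PAR-CLIP, cells take up 4-thiouridine, UV light links it to the bound protein, and the linked base is sequenced as a T-to-C conversion. A cluster is a stretch of overlapping reads with such conversions, and the crosslinked reads of a gene are the reads in its clusters. Both lines stably carried a tetracycline-inducible, FLAG/HA-tagged DHX36 transgene, so that the protein was overexpressed. It was induced for 15 h with 500 ng per ml, and the cells were irradiated at 365 nm for 5 min. The FH-DHX36 line expressed the protein without the mutation, labelled as isoform 2, and the other line expressed FH-DHX36-E335A, a mutant of the DEAH box labelled as isoform 1 and called the E335A line from here on, so that the effects of isoform and mutation cannot be told apart. Each line had 2 replicates. The table gives 1 value per gene and line and does not separate the replicates, so there is no replicate spread for any value here and no test between the lines. It holds 8752127 crosslinked reads in 60208 clusters for the E335A line and 2160413 reads in 16742 clusters for the FH-DHX36 line, a ratio of 4.05. Where a pair of values is given, the E335A line comes first. Intervals are at 95% and cover counting error only, and since reads had no molecular identifiers they are not independent molecules.

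The members write, erase or act on chromatin marks. KMT2 and SETD proteins are SET-domain methyltransferases, EZH1 and EZH2 are the catalytic subunits of Polycomb repressive complex 2, KDM proteins remove methyl groups from lysines and HDAC proteins remove acetyl groups. SMARC and ARID1 proteins are mostly subunits of SWI/SNF complexes, which move or evict nucleosomes with the energy of ATP, and CHD proteins are chromodomain remodelers. Many of these proteins are large, and their mRNAs have long coding sequences.

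G runs are shown first, since G-rich RNA is the substrate for which DHX36 is known. The search took 4 runs of at least 2 G separated by 1 to 7 nt, on the sense strand, with a stricter form of at least 3 G per run (GGG, 1 to 7 of any base, and so on to the last GGG). A spacer base may itself be G, so that an unbroken block of 5 G can hold 2 of the runs, as in the SMARCD2 stretch. Transcripts and coordinates are from the canonical transcripts of GENCODE release 44 on GRCh37. A match is a description of letters and not a site, and the table does not place clusters within a region. For the members with the most E335A reads in the 3'UTR, the match of at most 30 nt within an exon that held the most G is shown, taken from the stricter form where it had one. Capitals mark the G runs, and the letters equal the GRCh37 genome.
KMT2D 3'UTR, chr12:49414515-49414534, minus strand, exon 55 of 55: GGGttGGGtGGGGGGtaGGG
SMARCD2 3'UTR, chr17:61909744-61909767, minus strand, exon 13 of 13: GGGGtaagttGGGGGttttcaGGG
SMARCC1 3'UTR, chr3:47627449-47627472, minus strand, exon 28 of 28: GGGGaGGGagtttGGcaagaatGG
KDM4A 3'UTR, chr1:44170955-44170978, plus strand, exon 22 of 22: GGGGtGGGGGGtGGGactagaGGG
SMARCC2 3'UTR, chr12:56556439-56556463, minus strand, exon 29 of 29: GGatgcaGGGatttGGGagcagtGG

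The stretches of KMT2D and KDM4A match the stricter form, and the other 3 the looser form. Among 3'UTRs within 10% of the length, the stricter form was held by 20.3% for KMT2D and 15.8% for KDM4A, and the looser form by 67.6% for SMARCD2, 86.9% for SMARCC1 and 73.7% for SMARCC2. The ARID1A 3'UTR, also among the 6 with the most reads, held no match, while 73.4% of 1115 3'UTRs within 10% of its length held at least 1. For the members with the most reads in the CDS, the corresponding stretches were as follows.
KDM5A CDS, chr12:498235-498255, minus strand, exon 1 of 28: GGcGGGcgtGGGGccGGGGGG
HDAC2 CDS, chr6:114264601-114264618, minus strand, exon 12 of 14: GGatgaaGGagaaGGaGG
ARID1A CDS, chr1:27023987-27024007, plus strand, exon 1 of 20: GGGagcagcGGcGGcGGGGGG
KMT2D CDS, chr12:49446824-49446848, minus strand, exon 9 of 55: GGGtgtgccGGGcctgtGGGGcGGG
SMARCC1 CDS, chr3:47823221-47823245, minus strand, exon 1 of 28: GGcgccacGGGctcGGGGattgcGG
CHD4 CDS, chr12:6705218-6705243, minus strand, exon 13 of 40: GGcttcttGGGagagtgaGGatgtGG

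Of these CDS stretches, that of KMT2D matches the stricter form and the other 5 the looser one. The stricter form was held by 11.8% of the 17 coding sequences of like length for KMT2D, and the looser form by 89.9% for HDAC2 up to 98.6% for CHD4. Such stretches were common in both kinds of region. With at least 2 G per run, a match was found in the CDS of 60 of the 61 members with an E335A cluster and in 85.8% of the other genes with one, and in the 3'UTR of 47 of the 61 and in 71.2% of the others. Per length, the CDS of the members held 2.72 matches per kb against 2.62 in the other genes, and the 3'UTR 2.20 against 1.72. With at least 3 G per run, 18 of the 61 members (29.5%) had a 3'UTR match against 15.5% of the others, at 0.205 and 0.0980 matches per kb.

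Among the 3'UTRs shown, that of KMT2D held the most matches. It held 26 matches with at least 2 G per run in 2802 nt, and 0.350% of 1142 3'UTRs within 10% of its length held as many or more. The SMARCD2 3'UTR held 6 matches in 857 nt, a number reached by 8.99% of 1023 3'UTRs of like length. Many matches also occurred in members with few or no reads there. The HDAC11 3'UTR held 20 matches, reached by 0.240% of 1251 3'UTRs of like length, with 27 E335A and 29 FH-DHX36 reads. The CHD5 and HDAC5 3'UTRs held 26 and 14 matches with no read in either line. Across the 61 members, 3'UTR matches per length and E335A 3'UTR reads per length had a Spearman rho of 0.347, against 0.155 across 8996 other genes. With FH-DHX36 reads it was 0.323 across the members and 0.305 across the other genes. For the CDS the same rho was -0.04 with E335A reads and 0.05 with FH-DHX36 reads across the members. Across 9015 other genes it was -0.01 and 0.232. These are descriptions across genes that share a library.

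Most members were bound. In the E335A line 61 of 77 members had at least 1 cluster (79.2%, Wilson interval 68.9 to 86.8%), where 34.5% of all listed genes and 48% of the genes matched to a protein-coding transcript had one. In the FH-DHX36 line, 47 of 77 had a cluster (61.0%, 49.9 to 71.2%), beside 22.4% of all genes and 31.2% of those matched to a coding transcript. Each of the 47 was also among the 61, so that 47 of 61 members with an E335A cluster had one in both lines (62.1% of all genes with an E335A cluster). The remaining 14 of the 61 had no cluster in the FH-DHX36 line. In the whole table this held for 3462 of the 9131 genes with an E335A cluster, a larger share, or 13.1% of all listed genes. The reverse was seen in no member. It was rare in the table too, where 5669 of the 5930 genes bound in the FH-DHX36 line were bound in both.

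By family, the ARID genes were covered completely in the E335A line, at 8 of 8. The SETD genes followed at 9 of 10, CHD at 8 of 9, SMARC at 12 of 14, KMT2 at 4 of 5, HDAC at 7 of 11 and KDM at 11 of 18. Both EZH genes had clusters in both lines. For the FH-DHX36 line the counts were 5 of 8 for ARID, 9 of 10 for SETD, 8 of 9 for CHD, 8 of 14 for SMARC, 4 of 5 for KMT2, 4 of 11 for HDAC and 7 of 18 for KDM.

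No cluster in either line was listed for KMT2A, SETD9, CHD5, SMARCAL1, SMARCA5-AS1, the deacetylases HDAC5, HDAC6, HDAC8 and HDAC10, and the demethylases KDM2B, KDM4C, KDM4D, KDM5C, KDM5D, KDM6A and KDM7A. The 15 of them that code for protein had a median CDS of 3369 nt with a range of 900 nt for SETD9 to 11919 nt for KMT2A. Reads are listed inside called clusters alone, and the lowest value of any gene with a cluster was 5 reads in the E335A line and 6 in the FH-DHX36 line. A gene at 0 thus had no called cluster, which sets no upper limit on its reads outside clusters. The table gives RNA abundance indirectly and for genes with reads alone, so whether these 16 RNAs were present in the cells was not tested.

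The 14 members seen in the E335A line alone had fewer reads than the rest. Their median was 80.5 reads, from 18 for SMARCD3 to 876 for SMARCA5, against a median of 588 reads for the 47 members seen in both lines. SMARCA5 is an ISWI-type ATPase, and its reads lay in 14 clusters. ARID3A, a DNA-binding ARID protein, had 724 reads, of which 688 lay in the 3'UTR. KDM4B, a histone demethylase, had 566 reads, each in the 3'UTR. SMARCA2, a SWI/SNF ATPase, had 494 reads, 227 of them in introns. No fold is given for these genes, as a value of 0 in the FH-DHX36 line means that no cluster was called there. The larger number of reads in the E335A line moves with these calls, and its part in them was not tested.

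**Figure D1:**
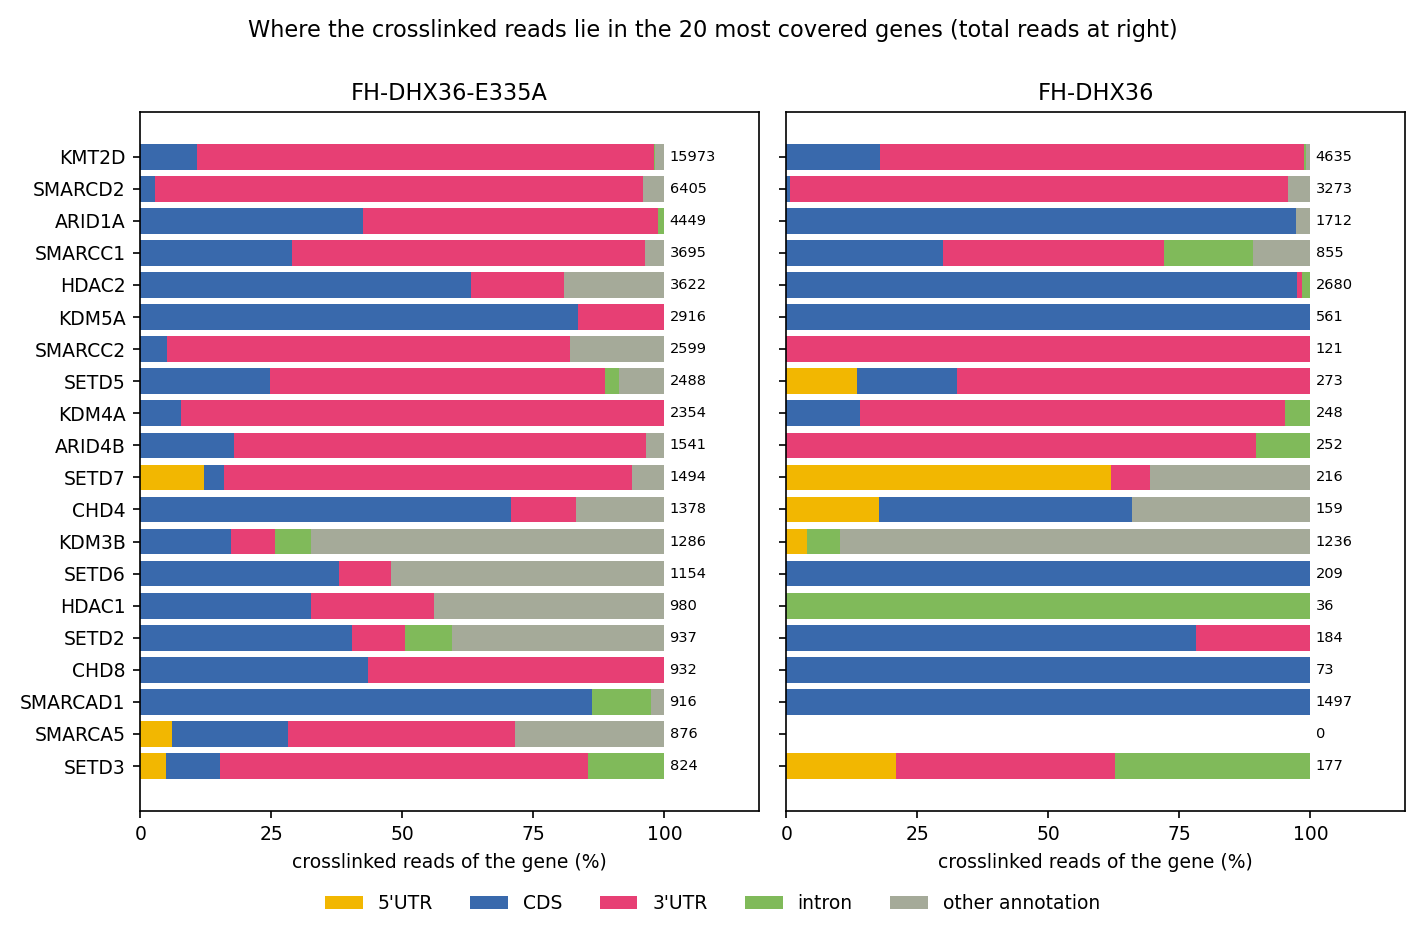
Percent of crosslinked reads by annotation in the 20 members with the most E335A reads, as stacked bars for the FH-DHX36-E335A line and the FH-DHX36 line, with total reads at the right. KMT2D has 15973 and 4635 reads, most of them in the 3'UTR, while HDAC2 and KDM5A have most of their reads in the CDS.

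Together the members held 515 clusters and 68464 reads in the E335A line, which is 0.782% of all crosslinked reads, and 167 clusters and 22611 reads in the FH-DHX36 line, which is 1.05%. These reads were spread unevenly. The 5 most covered members held 49.9% of the members' reads in the E335A line and 61.0% in the FH-DHX36 line, and KMT2D alone held 23.3% and 20.5%.

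Of the annotation categories, the CDS held the most clusters of the members in both lines. In the E335A line 262 clusters were in the CDS, 181 in the 3'UTR, 8 in the 5'UTR, 24 in introns and 40 in other annotation. In the FH-DHX36 line the numbers were 71, 50, 7, 28 and 11. The CDS held 58.1% of exonic clusters in the E335A line (53.5 to 62.6%) against 35.5% for all other genes, and 55.5% in the FH-DHX36 line (46.8 to 63.8%) against 38.1%. Counted in reads, the CDS held 31.0% of the exonic total in the E335A line and 50.4% in the FH-DHX36 line, or 37.8% and 61.5% without KMT2D. A CDS cluster of a member had 72.5 E335A reads on average and a 3'UTR cluster 231, or 77.4 and 161 without KMT2D. With FH-DHX36 reads the averages were 127 for the CDS and 171 for the 3'UTR, or 149 and 145 without KMT2D.

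**Figure D2:**
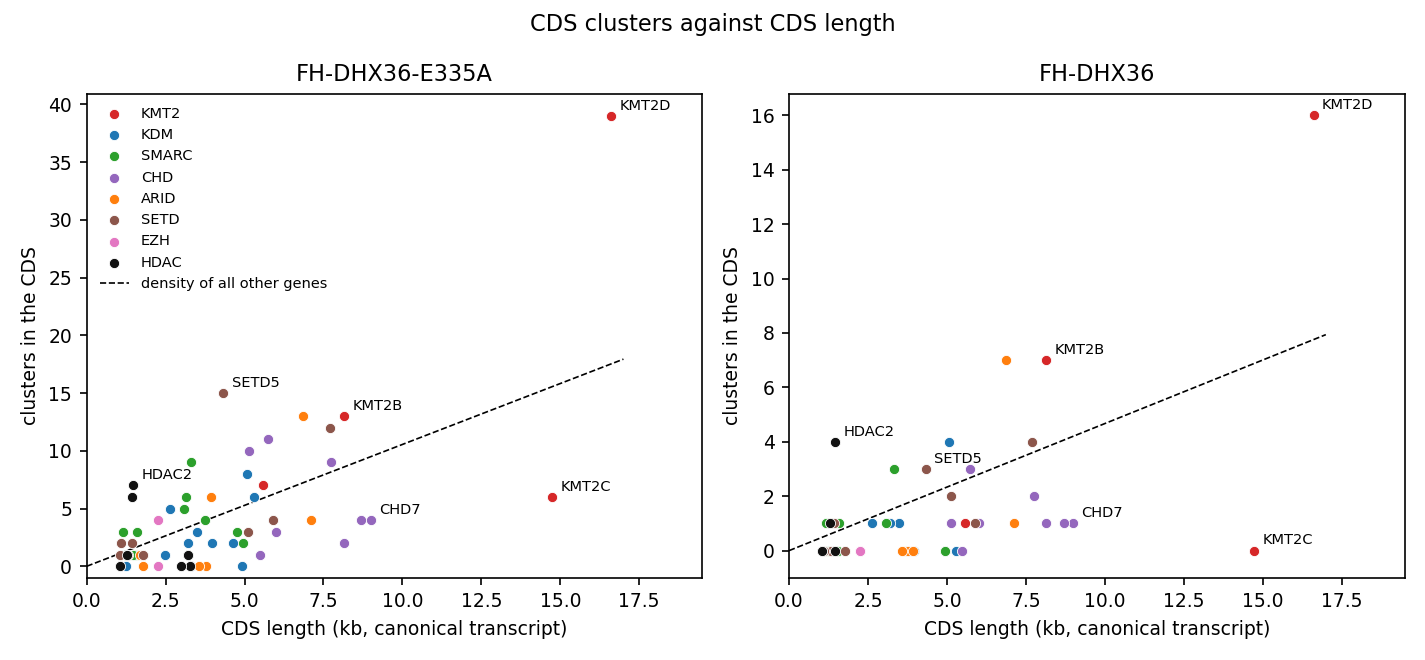
CDS clusters against CDS length of the canonical transcript for each member with a cluster in each line, coloured by family. A dashed line marks the pooled CDS clusters per kb of all other genes with a cluster. KMT2D has the longest CDS of the members, 16614 nt, with 39 CDS clusters in the E335A line and 16 in the FH-DHX36 line.

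Members had long coding sequences, which bears on this share. The median CDS of members with a cluster was 3318 nt in the E335A line and 3939 nt in the FH-DHX36 line, against 1386 and 1383 nt for the other genes with a cluster. Median 3'UTRs were closer, at 1733 and 1707 nt against 1532 and 1546 nt. By length alone the CDS would have held 63.6% of exonic clusters of the members in the E335A line, so that the observed share was 0.914 times this value (0.842 to 0.984). The 3'UTR share was 1.22 times its share by length (1.08 to 1.36) and the 5'UTR share 0.508 times (0.258 to 0.991). Without KMT2D the 5'UTR value was 0.588 (0.299 to 1.15), an interval that takes in 1. The other genes with a cluster gave 0.84 for the CDS, 1.12 for the 3'UTR and 1.05 for the 5'UTR. For the FH-DHX36 line the members gave 0.844 for the CDS (0.713 to 0.971) and 1.27 for the 3'UTR (1.01 to 1.55), and without KMT2D 0.899 (0.743 to 1.05) and 1.08 (0.805 to 1.39), intervals that take in 1. The other genes gave 0.98 for the 3'UTR in that line. The 5'UTR share was 1.54 times its share by length (0.753 to 3.06) for the members and 2.15 times for the other genes. Without KMT2D the members gave 2.20 (1.08 to 4.31). In both lines the observed CDS share thus lay below the share by length, for the members and for the other genes (0.90 in the FH-DHX36 line). With lengths of the longest transcript, the members' CDS ratio was 0.956 (0.880 to 1.03) in the E335A line. In the FH-DHX36 line their 3'UTR ratio was then 1.24 (0.986 to 1.51). Both of these intervals take in 1. Clusters in the 5'UTR were listed for 7 of 61 members in the E335A line, where 20.4% of genes with a cluster had one, and for 7 of 47 in the FH-DHX36 line, where 18.6% did.

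Densities per kb were taken only over genes with a cluster in the line. Of genes matched to a coding transcript, these were 80.3% of members and 47.9% of other genes in the E335A line. In the FH-DHX36 line they were 61.8% and 31.1%. Per kb of CDS, the members had 1.03 clusters in the E335A line (0.911 to 1.16), or 0.940 without KMT2D, and the other genes 1.06. In the FH-DHX36 line the members with a cluster had 0.330 per kb of CDS (0.258 to 0.417). That was below the 0.467 of the other genes with a cluster (0.454 to 0.480). Per kb of 3'UTR, the members had 1.38 clusters in the E335A line (1.18 to 1.59) and 0.516 in the FH-DHX36 line (0.383 to 0.680), against 1.45 and 0.519 for the other genes. Without KMT2D the FH-DHX36 value was 0.351.

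**Figure D3:**
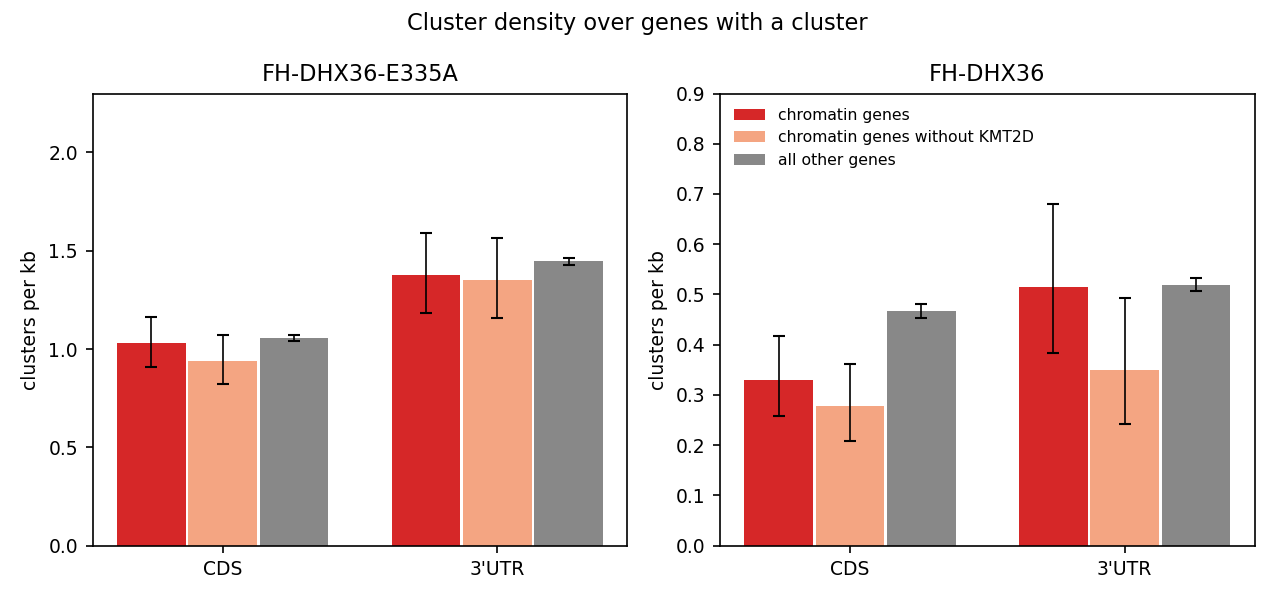
Clusters per kb of CDS and of 3'UTR for the members, the members without KMT2D and the other bound genes in each line, with Poisson intervals as error bars and separate vertical scales. In the CDS the members lie at 1.03 per kb in the E335A line beside 1.06 for the other genes, and at 0.330 in the FH-DHX36 line beside 0.467.

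Longer coding sequences went with more CDS clusters. Spearman's rho of CDS length with CDS clusters was 0.531 across the 61 members with an E335A cluster and 0.433 across the 47 with an FH-DHX36 cluster, against 0.143 and 0.123 across the other genes. The points share a library and are not replicates. Gene by gene, 33 of the 61 members had more CDS than 3'UTR clusters in the E335A line, where 29.7% of all genes with an exonic cluster did, and 23 had more in the 3'UTR (58.2% of all genes). For the FH-DHX36 line, 20 of the 37 members with an exonic cluster had more in the CDS (37.1% of all genes) and 13 had more in the 3'UTR (46.7%).

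KMT2D, a histone H3 methyltransferase of the COMPASS type (chr12:49412761-49454577, minus strand), carried the most reads of the members in both lines. It had 15973 reads in 50 clusters in the E335A line, rank 26 of all genes by reads, and 4635 reads in 35 clusters in the FH-DHX36 line, rank 44. Most of its E335A clusters, 39, lay in the CDS with 1719 reads, while 7 clusters in the 3'UTR held 13950 reads. In the FH-DHX36 line, 16 CDS clusters held 825 reads and 17 3'UTR clusters held 3755. The 3'UTR thus held 87.3% and 81.0% of its reads, which is the region with 26 G-run matches shown above. Its share of reads was 1.18-fold higher in the FH-DHX36 line (1.14 to 1.21). An annotated protein-coding gene without a symbol overlaps 638 nt of KMT2D exons on the same strand, and how reads there were assigned was not tested.

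The other KMT2 genes were far lower. KMT2B, also a COMPASS-type enzyme, had 732 reads in 15 clusters in the E335A line and 496 in 10 in the FH-DHX36 line, 13 and 7 of them in the CDS. KMT2C, the paralog of KMT2D, had 231 and 15 reads, and its CDS of 14736 nt held 6 E335A clusters, or 0.407 per kb against 2.35 per kb in KMT2D. KMT2E had 470 and 75 reads. KMT2A had none in either line, although its CDS spans 11919 nt.

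Among the SETD genes, SETD5 had the most reads, 2488 in 30 clusters in the E335A line and 273 in 8 in the FH-DHX36 line, with 1589 and 184 of them in the 3'UTR. SETD7, which methylates lysines of histones and other proteins, had 19 of 23 E335A clusters in its 3'UTR of 5625 nt, and 1163 of 1494 reads there. For the FH-DHX36 line it had 216 reads, 134 of them in the 5'UTR. SETD6 had 1154 and 209 reads. Its exons overlap 1354 nt of CNOT1 on the opposite strand.

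The Polycomb enzymes had exonic clusters in the E335A line and intronic clusters alone in the FH-DHX36 line. EZH1 had 94 reads in the E335A line, from 1 cluster in the 3'UTR, and 1362 reads in the FH-DHX36 line, from 1 cluster in an intron. EZH2 had 299 reads in the E335A line, 235 in 4 CDS clusters and 64 in introns, and 273 reads in the FH-DHX36 line, each in 1 of 3 intronic clusters. No exonic FH-DHX36 cluster was listed for either gene. As a share of all crosslinked reads, EZH1 was 58.7-fold higher in the FH-DHX36 line (47.6 to 73.1) and EZH2 3.70-fold (3.13 to 4.37).

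Of the demethylases, KDM5A, which acts on methylated lysine of histone H3, had most of its reads in the CDS. It had 2916 reads in the E335A line, 2433 in the CDS, and 561 in the FH-DHX36 line, each in the CDS. KDM4A, a demethylase of another subfamily, had 2171 of 2354 and 201 of 248 reads in the 3'UTR, and 2086 nt of its exons are shared with an annotated protein-coding gene on the same strand. KDM3B had 1286 and 1236 reads, of which 867 and 1109 lay in annotation other than UTR, CDS or intron. KDM6B had 23 reads in 1 3'UTR cluster in the E335A line and 100 reads in 2 intronic clusters in the FH-DHX36 line.

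HDAC2, a class I deacetylase, led its family with 3622 reads in the E335A line, 2287 in the CDS and 693 in other annotation, and 2680 reads in the FH-DHX36 line, 2609 in the CDS. Its 3'UTR of 8030 nt held 642 and 30 reads. HDAC1, its close paralog, had 980 reads in 12 clusters in the E335A line, including 6 in the CDS, and 36 reads in 1 intronic cluster in the FH-DHX36 line. HDAC3 had 623 and 108 reads, most of them in the 3'UTR. HDAC2 had the higher share in the FH-DHX36 line, by 3.00-fold (2.85 to 3.15), while HDAC1 had the higher share in the E335A line, by 6.72-fold (4.82 to 9.65).

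The SMARC genes held 24.8% of the members' reads in the E335A line and 27.3% in the FH-DHX36 line. SMARCD2, an accessory SWI/SNF subunit, had 6405 and 3273 reads, 5963 and 3109 of them in a 3'UTR of 857 nt. SMARCC1, a core scaffold subunit, had 3695 reads in the E335A line, 2482 in the 3'UTR and 1073 in the CDS, and 855 in the FH-DHX36 line. SMARCC2, its paralog, had 2599 reads in the E335A line, 1997 of them in a single 3'UTR cluster, and 121 reads in the FH-DHX36 line. SMARCAD1, an ATP-dependent remodeler, had 916 reads in the E335A line and 1497 in the FH-DHX36 line, the latter from 1 CDS cluster.

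ARID1A, the ARID subunit of BAF-type SWI/SNF complexes, differed by region between the lines. In the E335A line it had 4449 reads, 2502 in 7 clusters of the 3'UTR and 1895 in 13 clusters of the CDS. In the FH-DHX36 line it had 1712 reads, 1665 of them in 7 CDS clusters, with no cluster in the 3'UTR. ARID4B had 1541 and 252 reads, mostly in the 3'UTR (1211 and 226).

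Most exonic clusters of the CHD genes lay in the CDS. Together they had 44 CDS and 8 3'UTR clusters in the E335A line, so that the CDS held 84.6% of their exonic clusters, and 10 CDS and 0 3'UTR clusters in the FH-DHX36 line. Per length, the E335A line had 0.787 clusters per kb of their CDS and 0.531 per kb of their 3'UTR. The other genes with a cluster had 1.06 and 1.45. CHD4, the NuRD ATPase, had 1378 reads (974 in the CDS) and 159 reads (77 in the CDS). An annotated protein-coding gene shares 5846 of 6491 nt of the CHD4 exons on the same strand. CHD8 had 932 reads, 527 of them in the 3'UTR and 405 in the CDS, and 73 reads, each in the CDS. CHD1 had 588 and 115 reads. The FH-DHX36 cluster of CHD2 lay in other annotation. The family had long CDS and 590 reads in all in the FH-DHX36 line, fewer than any of the KMT2, KDM, SMARC, ARID, SETD, EZH and HDAC groups.

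NXPM, the normalized score in the table, is crosslinked reads scaled to the library and divided by RNA abundance, so that a high value means many reads for little RNA. The median over members with a cluster was 11.4 in the E335A line (4.84 to 26.6) against 5.65 for the other genes, and 16.3 in the FH-DHX36 line (10.03 to 26.03) against 7.77. Reads in the score are not divided by transcript length, and the members had longer coding sequences (median 3318 against 1386 nt in the E335A line). The part of length in these medians was not tested. Recovered abundance was lower in the members, with a median of 3.32 against 5.92 for E335A genes and 3.71 against 7.32 for FH-DHX36 genes, while median reads were 449 against 324.5 and 115 against 121. Values over 100 were held by 3 of 61 members in the E335A line (5.18% of all genes with a cluster) and 6 of 47 in the FH-DHX36 line (6.78%).

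KMT2D had NXPM of 1217 in the E335A line and 1430 in the FH-DHX36 line, at a recovered abundance of 1.499. In the E335A line ARID1A and KDM5A came next, with 140 and 129, and in the FH-DHX36 line SMARCAD1 with 239 and ARID1A with 218. KDM5A had 100.3 in the FH-DHX36 line. HDAC2 had 55.3 and 166, and KDM3B 30.04 and 117. SMARCAD1 had 36.1 in the E335A line. SETD5 had 85.6 and 38.0, and SMARCC2 78.7 and 14.8. At the low end SMARCD3 had 0.115 in the E335A line.

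**Figure D4:**
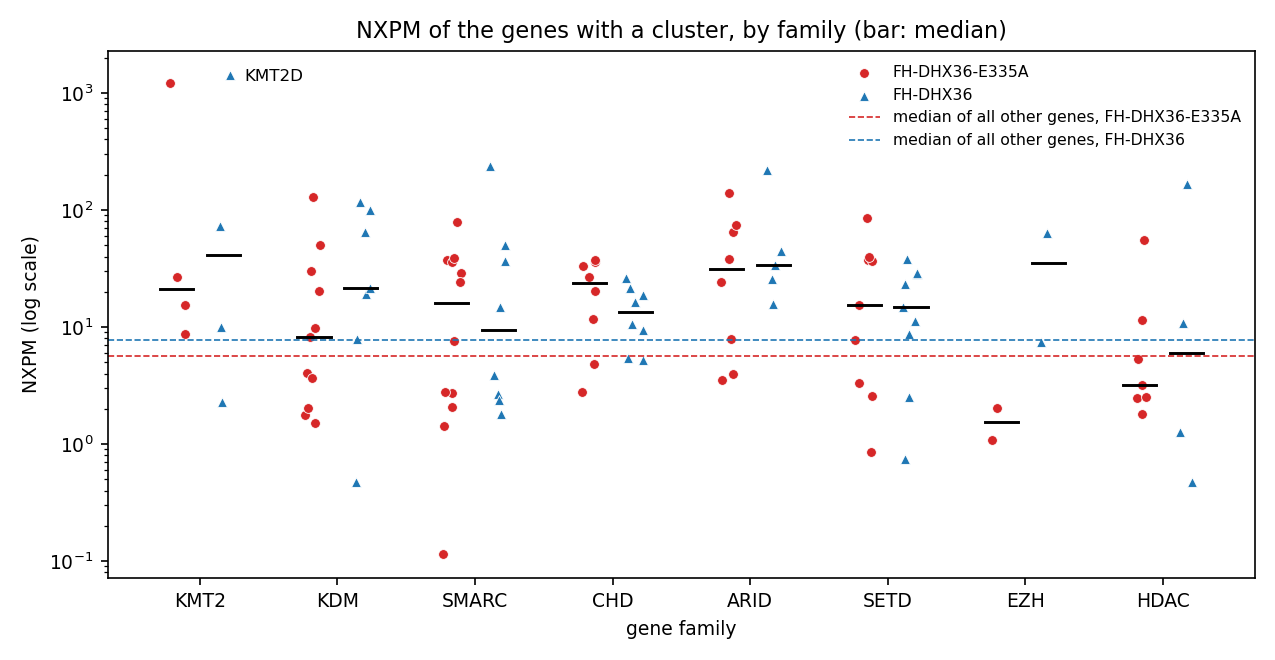
NXPM on a log scale of each member with a cluster, by family, with the family median as a bar and the median of all other genes as dashed lines. KMT2D lies above every other member in both PAR-CLIPs, at 1217 and 1430.

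Between the lines, the share of all crosslinked reads was compared for the 47 members seen in both. Spearman's rho of the reads was 0.660. The ratio of the E335A share to the FH-DHX36 share had a median of 1.07 and ranged from 0.0170 to 6.72. By at least 2-fold, 11 members were higher in the E335A line, where 28.6% of 5669 genes were, and 11 in the FH-DHX36 line, where 24.8% were. Of the 37 members with at least 50 reads in each line, 7 and 9 were, beside 922 and 1119 of 4248 such genes. With 1 value per line these ratios have no replicate check.

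Among the members with at least 50 reads in each line, the 5 with the largest ratio towards the E335A line were SMARCC2 by 5.30-fold (4.42 to 6.42), CHD8 by 3.15-fold (2.48 to 4.06), KDM4A by 2.34-fold (2.05 to 2.68), SETD5 by 2.25-fold (1.98 to 2.56) and ARID5B by 2.22-fold (1.69 to 2.97). Towards the FH-DHX36 line they were EZH1 and EZH2, given above, SMARCAD1 by 6.62-fold (6.09 to 7.20), KDM3B by 3.89-fold (3.60 to 4.21) and SETD1A by 3.68-fold (3.06 to 4.42). Below that minimum, HDAC1 (given above), KMT2C by 3.80-fold (2.26 to 6.90), KDM1A by 3.22-fold and SETD1B by 2.54-fold were also higher in the E335A line, and HDAC11 was 4.35-fold higher in the FH-DHX36 line. KDM6B, with 23 E335A reads, was 17.6-fold higher in the FH-DHX36 line (11.1 to 29.1).

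**Figure D5:**
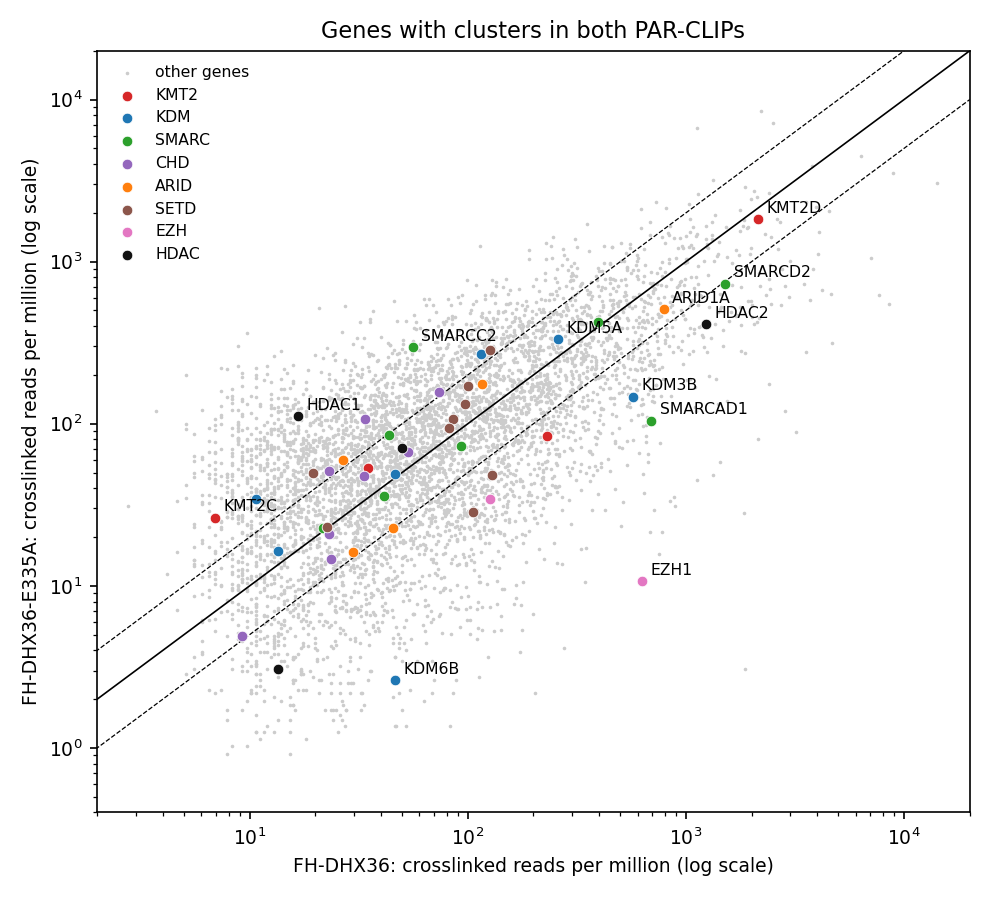
Crosslinked reads scaled to each library, on log axes, for genes bound in both lines, members coloured by family over all other genes, with lines at equal shares and at 2-fold. EZH1 and KDM6B lie below the lower 2-fold line, and SMARCC2 and HDAC1 above the upper one.

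Several of these members had their FH-DHX36 reads in introns. An intronic cluster was listed for 16 of 61 members in the E335A line (23.9% of genes with a cluster) and for 19 of 47 in the FH-DHX36 line (24.3%). For the FH-DHX36 line, 7 of 38 members with at least 50 reads had over 50% of them in introns, where 10.9% of such genes did: EZH1, EZH2, KDM6B, SETD8, SMARCE1, SETD1A and CHD1. SETD8, a histone H4 methyltransferase, had 278 of 278 reads there, SMARCE1, a SWI/SNF subunit, 89 of 89, SETD1A 135 of 227 and CHD1 58 of 115. In the E335A line this held for 1 of 52, KDM5B with 84 of 110 reads (4.65% of such genes). In all, introns held 12.4% of the members' FH-DHX36 reads and 1.93% of their E335A reads, against 8.47 and 4.50% for the other genes. The EZH1 cluster held 1362 of the 2795 intronic FH-DHX36 reads, and without EZH1 the members' share was 6.74%, below that of the other genes. Of the 10 members without an exonic FH-DHX36 cluster, 8 had intronic clusters alone and 2 had other annotation alone, while each of the 61 members had an exonic cluster in the E335A line (93.4% of all genes with a cluster). The clusters' positions within introns are not in the table.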

How the data were processed

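The authors aligned PAR-CLIP reads to the hg19 build, ran PARpipe with PARalyzer to call clusters, and annotated them by GENCODE 19; their versions are not given in the sources used here. A deposited table of 26490 genes holds 1 column set per cell line, namely the number of clusters, raw crosslinked read counts as deposited by the authors, and NXPM, a score deposited by the authors that scales reads to the library and divides by abundance plus 0.001. From the last, abundance was recovered. The table had 0 columns of other samples.

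Members were matched to canonical transcripts of GENCODE release 44 on GRCh37, which differs from the release of the authors. In release 44, exons of 9 members overlapped a protein-coding gene on the same strand and exons of 10 did so on the opposite strand. With any annotated gene there was an overlap for 26 members. Whether reads were shared there, and whether the release of the authors held these overlapping genes, was not tested. Shares have Wilson intervals, clusters per kb Poisson intervals, ratios of shares exact binomial intervals, and medians order-statistic intervals. No test was run, as there is 1 value per line. Python 3.11.15, pandas 2.3.3, numpy 2.4.6 and scipy 1.17.1 were used, and the code was tested on simulated data. The 4 samples, in 2 groups of 2 replicates, were grouped by their labels.

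The members, families and lists were chosen with earlier results of these data known. Named genes were the KMT2 genes, the 3 members per other family with the most FH-DHX36-E335A reads, the 5 highest by NXPM per line, the 5 with the largest ratio of shares in each direction among members with at least 50 reads in each line, members with over 50% intronic reads, and members without a cluster. Members seen with FH-DHX36-E335A alone, CHD2, HDAC11, KDM1A, SETD1B and genes of the lists of partners and further enzymes were named after their values were seen.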

Additional observations from a re-analysis of the deposited data

How the results depend on the processing

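Of 58 alternatives to 18 results, 44 stayed within the counting interval or 1.5 times the count, and 14 moved. In reads instead of clusters, the E335A CDS share was 31.0%, its ratio to the share by length was 0.487 for the CDS (0.604 without KMT2D) and 2.07 for the 3'UTR (1.80 without KMT2D). Over all members with a transcript, with or without a cluster, CDS clusters per kb were 0.843 in the E335A line and 0.228 in the FH-DHX36 line. The same densities over all other genes are not given, so whether members differ on that base was not tested. Requiring at least 50 reads in each line, 7 of 37 members were 2-fold higher in the E335A line, beside 922 of 4248 genes. At 3-fold, 5 were higher in the E335A line and 7 in the FH-DHX36 line, and in exonic reads 7 were 2-fold higher in the FH-DHX36 line. At least 2 FH-DHX36 clusters were found in 25 members. Counts over all genes at 3-fold, in exonic reads or at 2 clusters are not given, so whether the members differ there was not tested. The median FH-DHX36 NXPM of the CDS, over members with a CDS cluster, was 39.7. That score is on another scale than NXPM of the whole gene. SMARCAD1, with each FH-DHX36 read in the CDS, had 842 by the CDS score and 239 by the whole-gene score. The CDS median thus cannot be set against the whole-gene median. Without EZH1 the intronic share of the members' FH-DHX36 reads was 6.74%. The settings without KMT2D, without EZH1 and with expected shares weighted by clusters were chosen after seeing the data. No paired analysis was possible because the table has 1 value per line, and leaving out a replicate was not possible for the same reason. Whether the lower number of FH-DHX36 reads set which clusters that line listed was not tested.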

Other observations

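Partner genes of the same complexes and further histone methyltransferases and acetyltransferases, 70 genes in 7 lists, were counted in the same way. In the E335A line 59 had a cluster (84.3%) and in the FH-DHX36 line 45 (64.3%), beside 34.5% and 22.4% of all genes. Among genes matched to a protein-coding transcript the shares were 48% and 31.2%. The CDS held 41.5% and 35.7% of the exonic clusters of the listed genes. By list, E335A clusters were found in 9 of 10 COMPASS subunits, 8 of 9 PRC2 genes, 9 of 12 further SWI/SNF subunits, 11 of 13 NuRD and co-repressor genes, 5 of 6 ISWI partners, 9 of 11 other histone methyltransferases and 8 of 9 acetyltransferases. In the FH-DHX36 line the counts in the same order were 6, 7, 5, 8, 4, 8 and 7.

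Single genes of these lists exceeded most members in reads. MBD3, a NuRD subunit, had 7902 reads in the E335A line and 8220 in the FH-DHX36 line. RBBP7, a histone chaperone shared by several complexes, had 5483 and 2493, and WDR82, a COMPASS subunit, 5095 and 1149. WHSC1L1, a histone methyltransferase, had 4977 and 236. BPTF, a large ISWI partner, had 3338 and 468 reads, with 3175 of the first in the CDS.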
